A study of Homo sapiens with 4 samples.

Results

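Aminoacyl tRNA synthetases are the enzymes that attach each amino acid to its tRNA. They were taken from the count table by symbol: a letter followed by ARS, with or without a closing 2, together with FARSA and FARSB, the subunits of the cytosolic phenylalanine enzyme. This rule found 36 genes among 26364, of which 19 encode cytosolic enzymes and 17, with symbols ending in 2, encode mitochondrial enzymes. All 36 passed the filter on low counts that left 15599 genes for testing. EPRS, the fused enzyme for glutamate and proline, and TARSL2 fall outside the rule and are given apart.

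The genes were measured by RNA sequencing in Ishikawa cells, an endometrial adenocarcinoma line. All 4 libraries came from cells whose ESR1 gene, for estrogen receptor alpha, carries the Y537S mutation, described in the labels as 2 clones, so each line stands for 1 clone. The cells were kept in hormone-depleted medium for at least 5 days and then received 0.1% DMSO, the vehicle (2 libraries), or 10 nM estradiol (E2, 2 libraries) for 8 h. Libraries were stranded, poly(A)-selected and made from 500 ng of RNA each. The column names carry a tag, A4 or B212, with 1 DMSO and 1 E2 library per tag. No label ties a tag to clone 1 or 2, so libraries are named here by tag and treatment.

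Each synthetase recognises its amino acid and the matching tRNA, and it uses ATP to join them, which supplies the ribosome with charged tRNA. Most amino acids have one enzyme for the cytosol and another, encoded by a separate nuclear gene, for mitochondria, while GARS and KARS serve both compartments from a single gene. Several cytosolic enzymes are held in a multisynthetase complex by the scaffold proteins AIMP1, AIMP2 and EEF1E1. When uncharged tRNA accumulates, the kinase GCN2 raises translation of the transcription factor ATF4, whose known targets include many cytosolic synthetases and enzymes of amino acid synthesis such as ASNS.

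The libraries held 71575816 to 85222856 counts. Cytosolic synthetases took 0.403% to 0.512% of them and mitochondrial synthetases 0.0834% to 0.0930%. All 8 epithelial markers examined were detected in every library, while CD3E and PECAM1 had no counts, and DCN and LUM were at or near 0. The 9 markers of blood, endothelial and stromal cells summed to 97.4 to 134 CPM (counts scaled to a common library total) in A4 and 40.4 to 49.5 CPM in B212. Without the collagen gene COL1A1 they summed to 5.02 to 6.13 CPM in A4 and 5.91 to 7.12 CPM in B212. Every library had its own combination of tag and treatment, and none was a repeat of another within counting error. That does not show separate cultures, and nothing in the labels says whether there were any. The p-values thus measure only the spread between these libraries. In the E2 test that ignores tags this spread includes the difference between tags, and otherwise it may be technical. Between tags, the DMSO and E2 libraries of a tag stood in for its replicates. Those p-values therefore do not measure variation between clones. Fewer cells of a type and less RNA per cell cannot be told apart in such bulk samples.

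Promoter windows were read from RefSeq (GRCh38.p14) to show which synthetase genes carry letters known from ATF4 targets at their start. Windows of 300 bases, 250 before and 50 after the start, were found for 29 of the 36 genes, 15 cytosolic and 14 mitochondrial, and the rest, among them YARS, DARS, LARS, VARS, VARS2 and AARS2, had no entry. The core of the ATF4 response element, TGATGNAA on either strand, occurred in 7 of the 15 cytosolic windows, 1 of the 14 mitochondrial windows (YARS2) and 4.46% of the 27305 gene symbols with a window. The stretches below are printed on the strand of the gene, with the matching letters, or their reverse complement, in capitals. ASNS, a classic ATF4 target, is shown for comparison.
GARS (chr7:30594834-30594863, plus strand): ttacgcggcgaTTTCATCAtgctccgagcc
MARS (chr12:57488053-57488082, plus strand): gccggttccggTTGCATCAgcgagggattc
TARS (chr5:33440956-33440985, plus strand): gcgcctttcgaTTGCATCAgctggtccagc
IARS (chr9:92293692-92293721, minus strand): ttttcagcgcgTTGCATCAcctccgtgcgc
CARS (chr11:3057407-3057436, minus strand): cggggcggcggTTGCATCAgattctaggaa
NARS (chr18:57621804-57621833, minus strand): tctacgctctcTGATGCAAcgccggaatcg
AARS (chr16:70289675-70289704, minus strand): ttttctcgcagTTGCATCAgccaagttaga
YARS2 (chr12:32756076-32756105, minus strand): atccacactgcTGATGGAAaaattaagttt
ASNS (chr7:97872458-97872487, minus strand): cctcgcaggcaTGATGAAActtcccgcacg
In 6 of the 7 cytosolic genes the letters at the N position make the word TTGCATCA or its reverse complement, and GARS has TTTCATCA. The match begins within 33 bases of an annotated start in GARS, MARS, TARS, IARS, CARS and NARS, and 187 bases upstream in AARS. The windows of the remaining 8 cytosolic genes (FARSA, FARSB, HARS, KARS, QARS, RARS, SARS and WARS) did not hold these letters. A match describes the letters and does not show that a factor binds there.

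The E-box CACGTG was found in IARS and in the mitochondrial genes CARS2, EARS2 and MARS2, that is 1 of 15 cytosolic and 3 of 14 mitochondrial windows, compared with 8.77% of all symbols. The palindromic estrogen response element, GGTCA and TGACC with 3 bases between them, was in none of the 29 windows and in 0.0732% of all symbols. HARS and HARS2, the cytosolic and mitochondrial histidine enzymes, lie head to head on chromosome 5, and their annotated starts are 85 bases apart. The stretch between them is printed on the plus strand, with the start base of HARS (read to the left) and that of HARS2 (read to the right) in capitals.
HARS to HARS2 (chr5:140691370-140691455, plus strand): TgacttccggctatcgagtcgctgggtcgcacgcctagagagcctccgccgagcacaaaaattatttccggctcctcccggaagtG
Although these starts adjoin, the genes differed in level and in their difference between tags, as given below. Exons overlapped other genes over 8.38% of bases in HARS and 15.8% in HARS2, mostly on the other strand. The effect of this overlap on their counts was not tested.

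Levels were compared between genes as CPM per kilobase of transcript, with library totals adjusted by edgeR's TMM factors. The cytosolic enzymes had a median of 72.5 CPM per kilobase and the mitochondrial enzymes 10.4. IARS, the isoleucine enzyme, stood highest at 126 to 178 CPM per kilobase over the 4 libraries. It was followed by NARS (asparagine) at 124 to 148, KARS (lysine) at 111 to 149 and MARS (methionine) at 94.5 to 161. These ranges overlapped, and only 2 of the 18 neighbouring pairs in the cytosolic order did not overlap across libraries. HARS (histidine) was near the bottom of the cytosolic order at 21.2 to 28.5 CPM per kilobase, and VARS (valine) was lowest at 0 to 0.155.

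Among the mitochondrial enzymes, IARS2 led with 71.9 to 85.6 CPM per kilobase, a level within that of the cytosolic enzymes. RARS2 (arginine) was next at 47.9 to 62.4. The lowest were PARS2 (proline) at 3.58 to 4.10 and VARS2 at 0.121 to 0.141. The mitochondrial order was better separated than the cytosolic order, with 8 of its 16 neighbouring pairs not overlapping.

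**Figure D1:**
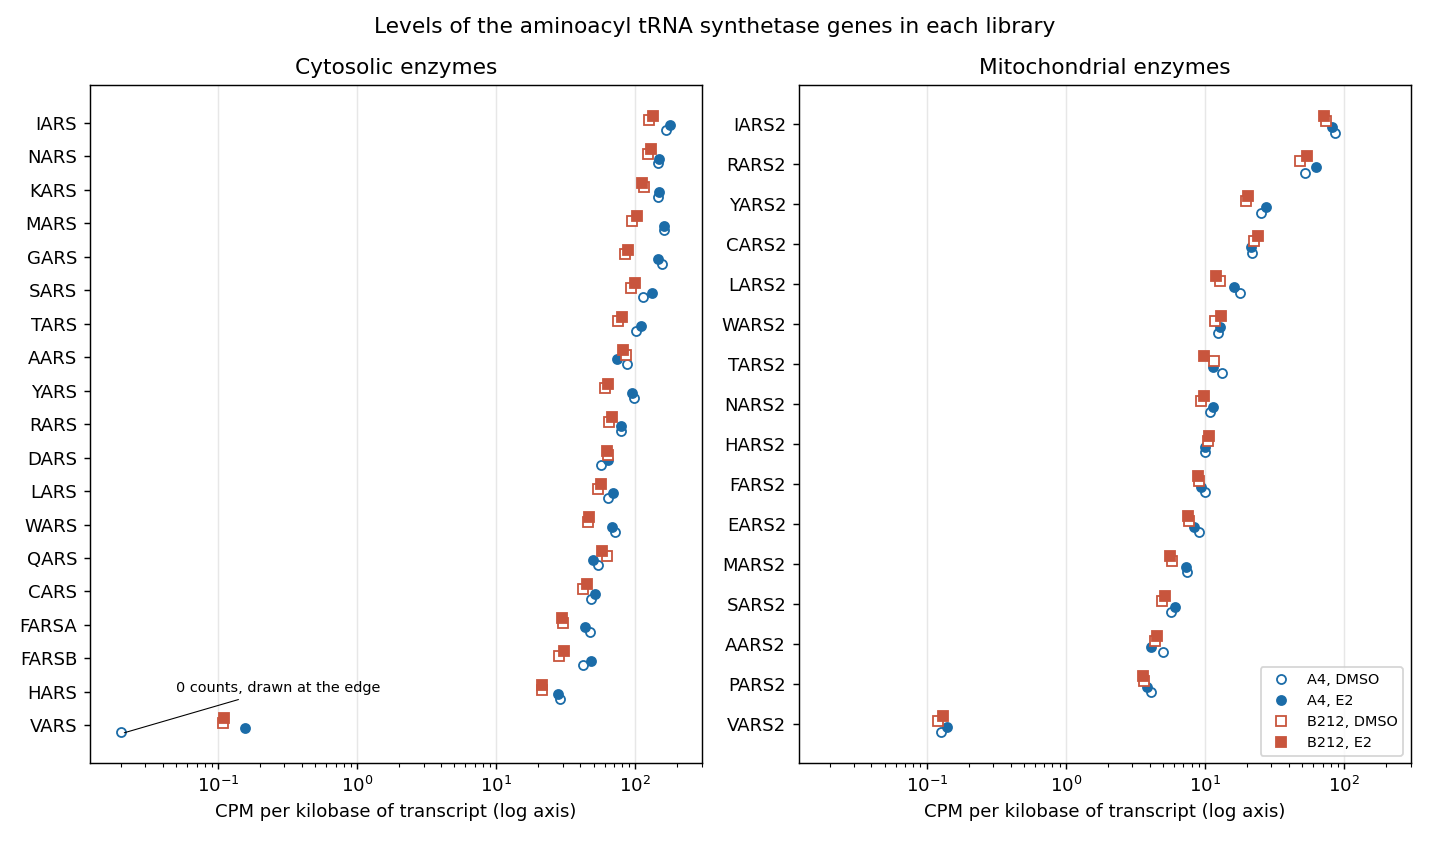
Level of the synthetase genes shown, in CPM per kilobase of transcript on a log axis, with circles for A4, squares for B212, open symbols for DMSO and filled symbols for E2. Most cytosolic enzymes lie above the mitochondrial ones (medians 72.5 and 10.4), VARS and VARS2 lie far below the rest, and the VARS value of 0 in the A4 DMSO library is drawn at the left edge.

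The ratio of the cytosolic to the mitochondrial enzyme for the same amino acid varied widely. SARS exceeded SARS2 (serine) 18.9 to 21.9 times per kilobase, MARS exceeded MARS2 16.2 to 22.1 times, and AARS exceeded AARS2 (alanine) 17.4 to 19.4 times. NARS exceeded NARS2 12.9 to 13.3 times, the steadiest of these ratios. The serine ratio carries a limit, since 46.2% of the exon bases of SARS2 overlap other genes on the same strand. Reads could have been split or dropped there, and the effect on the ratio was not tested. At the other end, IARS exceeded IARS2 1.70 to 2.19 times and RARS exceeded RARS2 1.24 to 1.51 times. Apart from the valine pair, every ratio was above 1 in every library, so no mitochondrial enzyme outranked its cytosolic counterpart. HARS exceeded HARS2 2.80 to 2.87 times in A4 and 1.99 to 2.00 times in B212, and WARS exceeded WARS2 (tryptophan) 5.28 to 5.78 times in A4 and 3.53 to 3.84 times in B212. In both pairs the ratio was lower in both B212 libraries than in either A4 library. The same held for the serine, methionine, phenylalanine (either subunit), tyrosine, cysteine and isoleucine pairs, and not for the remaining pairs.

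**Figure D2:**
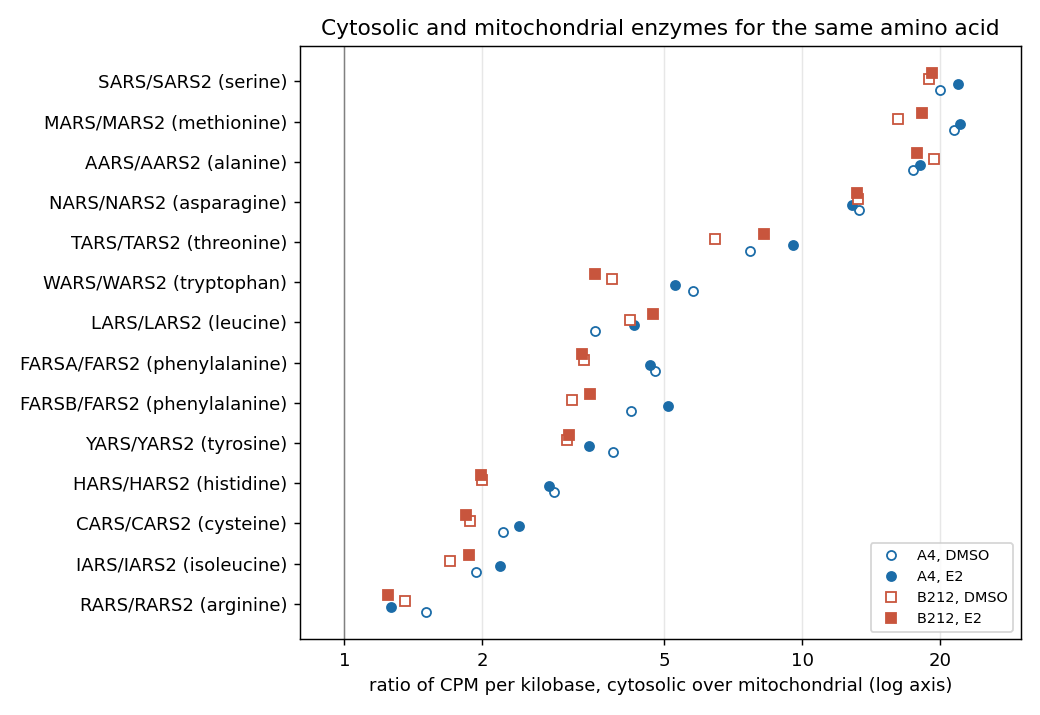
Ratio of CPM per kilobase of the cytosolic over the mitochondrial enzyme for the amino acids shown, on a log axis, with circles for A4, squares for B212, open symbols for DMSO and filled symbols for E2. The ratios run from 1.24 (RARS over RARS2) to 22.1 (MARS over MARS2), all to the right of the line at 1, and the valine pair is left out.

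VARS and VARS2, the valine enzymes, were barely counted in any library. VARS had 0 counts in the A4 DMSO library, 55 in A4 E2, 40 in B212 DMSO and 35 in B212 E2. VARS2 had 38, 47, 42 and 39 counts in the same order. The A4 DMSO library thus stands apart from the other 3 in VARS but not in VARS2. If 3 counts are put in place of the 0 in the A4 DMSO library, the A4 E2 value of VARS is 16.4 times as high. This ratio rests on that library alone, and the B212 pair showed no such rise, with an E2 log2 fold change of 0.03. Low counts also marked the genes around them. Of the 25 coding genes on each side in RefSeq order, those in the table numbered 49 for VARS, of which 45 (91.8%) had at most 10 counts, and 48 for VARS2, of which 39 (81.2%) did. Around the other 34 synthetase genes this share was 8.0% to 48.8%, with a median of 21.1%. The comparison with neighbours was chosen after the low counts were seen, and its part in them was not tested. In addition, exons of VARS2 overlap GTF2H4 on the same strand, and 46.2% of the exon bases of SARS2 overlap other genes on the same strand, so the authors' counting could have split or dropped reads there. Counting either strand, exons of 21 of the 36 genes overlapped other genes, over more than 20% of bases only in these 2.

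With E2 the summed level of the family moved little. The cytosolic enzymes summed to 5163 and 5271 TMM-scaled CPM in the A4 DMSO and E2 libraries and to 3945 and 4081 in the B212 DMSO and E2 libraries. The mitochondrial enzymes summed to 938 and 926 CPM in A4 and 816 and 820 CPM in B212. The E2 mean was 1.03 times the DMSO mean for the cytosolic sum and 0.995 times for the mitochondrial sum. The DMSO and E2 values overlapped in both compartments, since the tags lay further apart than the treatments.

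With edgeR's quasi-likelihood test without a block, 0 of the 36 synthetase genes passed an adjusted p of 0.05, and 0 had an unadjusted p under 0.05. The share called among all genes was 0%, with 150 genes at an unadjusted p under 0.05, and DESeq2 called 1 gene, which was no synthetase. The libraries of a tag deviated together, and with the tag as a replicate block 1492 genes passed, 9.56% of those tested (6.13% higher and 3.44% lower). Under this block 0 of the 19 cytosolic enzymes passed, with 3 at an unadjusted p under 0.05, and 1 of the 17 mitochondrial enzymes passed, RARS2. DESeq2 and limma-voom with the block called 0 synthetase genes, although DESeq2 gave no adjusted p for 1 cytosolic and 5 mitochondrial enzymes. The median log2 fold change with the block was 0.05 for cytosolic, -0.02 for mitochondrial and -0.01 for all genes.

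RARS2, which charges mitochondrial tRNA with arginine, had 94.6 and 113 CPM in the A4 DMSO and E2 libraries and 87.0 and 98.9 CPM in the B212 DMSO and E2 libraries. It was higher with E2 in both tags, by 0.26 and 0.19 on the log2 scale, and both E2 values lay above both DMSO values. The fold change was 0.22 ± 0.07 (SE; adjusted p = 0.0465 by edgeR with the replicate block, and 0.9999 without it). The call was lost under the block with DESeq2 size factors (adjusted p = 0.0800 by edgeR), with library size only (0.0678), with no filter (0.0545), with limma-voom (0.0583) and with DESeq2 (0.137). The log2 fold change of all genes with E2 fell with transcript length (Spearman rho -0.30 in A4 and -0.18 in B212, across genes, which are not independent replicates). With a smooth trend on length and GC content removed from each library, RARS2 changed by 0.06 on the log2 scale (adjusted p = 0.561 by edgeR with the block), and 0 of the 36 synthetase genes passed, against 6.03% of all genes (3.86% higher and 2.17% lower), with 3 at an unadjusted p under 0.05.

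The opposite end of the range was TARS2, the mitochondrial threonine enzyme. It had 36.0 and 31.3 CPM in the A4 DMSO and E2 libraries and 31.6 and 26.7 CPM in the B212 DMSO and E2 libraries. Both E2 values lay below both DMSO values, by 0.21 and 0.25 on the log2 scale within the tags, but the fold change of -0.23 ± 0.08 missed the threshold (adjusted p = 0.0789 by edgeR with the replicate block). VARS had a log2 fold change of 1.39 ± 0.58 with the block (adjusted p = 0.138 by edgeR), which rests on the 0 counts of the A4 DMSO library and is no bound. Leaving out that library brought its log2 fold change without the block from 1.27 to 0.30.

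For the 34 genes other than VARS and VARS2, the 95% intervals of the E2 change with the block lay between -0.391 (TARS2) and 0.368 (RARS2) on the log2 scale. The median size of the change, whichever its sign, was 0.072. The intervals of the 18 cytosolic enzymes lay between -0.297 (AARS) and 0.299 (FARSB). FARSB, the beta subunit for phenylalanine, had a log2 fold change of 0.16 ± 0.07 and FARSA, the alpha subunit of the same enzyme, -0.07 ± 0.07, and neither passed (adjusted p = 0.159 and 0.559 by edgeR with the block). In 28 of the 36 genes both tags moved the same way with E2, 17 up and 11 down, as did 10933 of all 15599 genes, 5190 up and 5743 down.

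**Figure D3:**
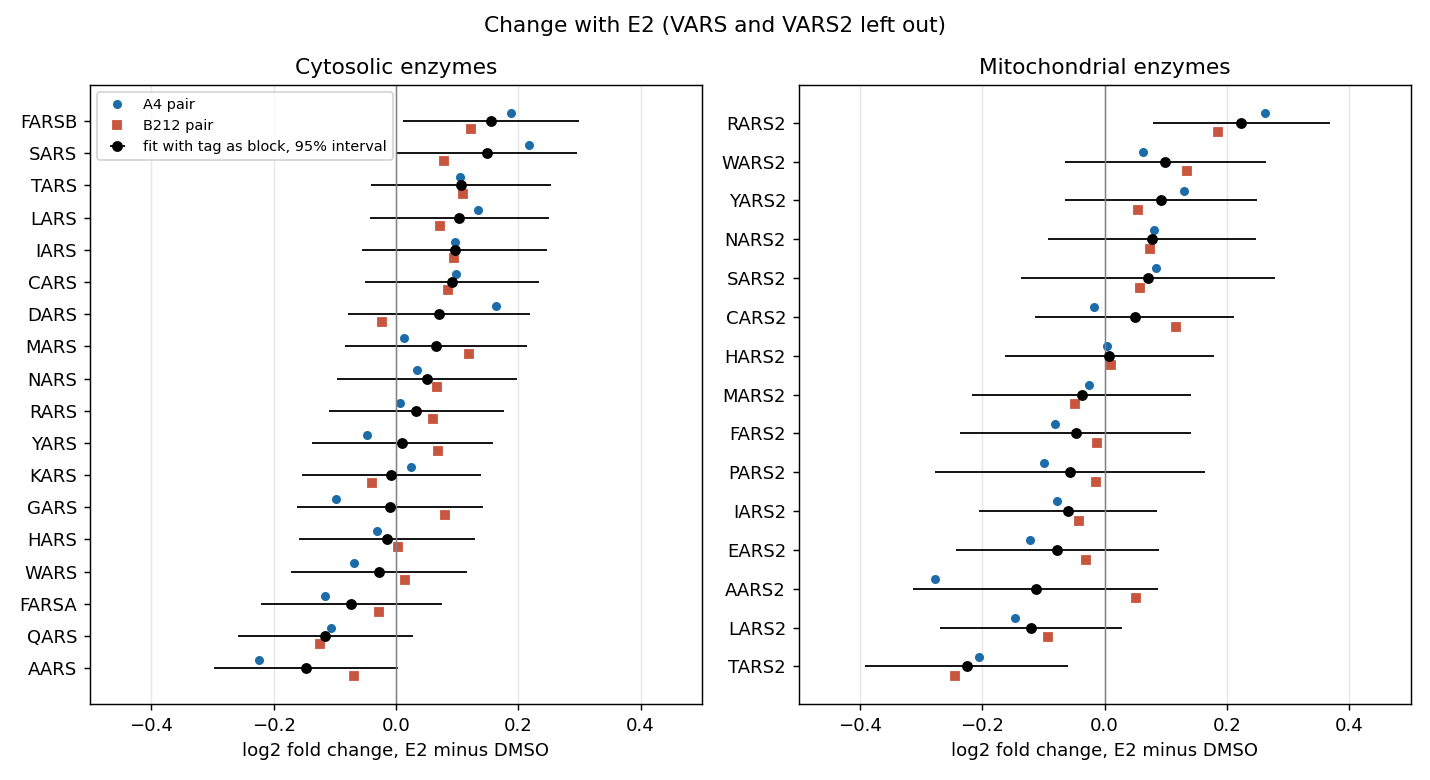
Log2 fold change of the synthetase genes shown with E2, with black points and bars for the fit that has the tag as a block and its 95% interval, blue circles for the A4 pair and red squares for the B212 pair, leaving out VARS and VARS2. The points lie between -0.23 (TARS2) and 0.22 (RARS2), and the intervals of all but FARSB, SARS, RARS2 and TARS2 cross 0.

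The tags differed far more than the treatments. Most cytosolic synthetases were lower in the B212 libraries than in the A4 libraries, by up to 42.3% for GARS, and the cytosolic sum in B212 was 0.769 times that in A4. Mitochondrial enzymes were lower by less, with a sum 0.878 times that in A4. With treatment as a covariate, edgeR's quasi-likelihood test called 15 of the 19 cytosolic enzymes lower and 1 higher in B212, and 7 of the 17 mitochondrial enzymes lower and 0 higher. Among all genes 51.0% were called, 25.8% lower and 25.2% higher. The median log2 fold change, B212 minus A4, was -0.39 for cytosolic and -0.16 for mitochondrial enzymes and 0.00 for all genes. Values of the tags did not overlap in 15 cytosolic enzymes that were higher in A4 and 1 that was higher in B212, where 32.8% and 34.7% of all genes did so. The same was true of 10 and 2 mitochondrial enzymes.

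The markers of the cell line moved with the tags as well. Of the 8 epithelial markers, 6 were called higher in B212 (median log2 fold change 0.55), where 25.2% of all genes were called higher and 25.8% lower. The sum of these markers was 2233 to 2373 CPM in A4 and 2760 to 3032 CPM in B212. Of the 9 non-epithelial markers 5 were tested, and 2 were called lower in B212, COL1A1 (92.4 to 128 CPM in A4 and 34.5 to 42.4 CPM in B212) and COL1A2, and 1 higher, VWF, with a log2 fold change of 0.58. Their part in the difference in synthetase genes was not tested.

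GARS, which charges glycine in both the cytosol and the mitochondria, differed most. It had 408 and 381 CPM in the A4 DMSO and E2 libraries and 221 and 234 CPM in the B212 DMSO and E2 libraries. The tags did not overlap, and the log2 fold change was -0.79 ± 0.07 (SE; adjusted p = 2.12e-08 by edgeR). MARS, the methionine enzyme of the multisynthetase complex, had 464 and 468 CPM in A4 and 275 and 298 CPM in B212, with DMSO given first here and in the values that follow. Its log2 fold change was -0.70 ± 0.07 (adjusted p = 9.5e-08 by edgeR), again with no overlap between tags. YARS, the tyrosine enzyme, which is also known for a secreted form, had 316 and 306 CPM in A4 and 196 and 206 CPM in B212. Its log2 fold change was -0.63 ± 0.07 (adjusted p = 3.87e-07 by edgeR), and both B212 values were lower than either A4 value.

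The subunits of the phenylalanine enzyme, which work as a tetramer, were lower to a like extent. FARSA had 97.2 and 89.7 CPM in A4 and 61.9 and 60.7 CPM in B212, a log2 fold change of -0.61 ± 0.07 (adjusted p = 5.83e-07 by edgeR). FARSB had 141 and 161 CPM in A4 and 95.2 and 104 CPM in B212, a log2 fold change of -0.60 ± 0.07 (adjusted p = 4.62e-07 by edgeR). Neither subunit overlapped between tags. WARS, the tryptophan enzyme and a known interferon-induced gene, had 220 and 210 CPM in A4 and 141 and 142 CPM in B212. Its log2 fold change was -0.60 ± 0.07 (adjusted p = 5.07e-07 by edgeR), with the B212 libraries below both A4 libraries. These 6 enzymes were called lower under all 7 alternative scalings, filters, tools and models run on the 4 libraries and with each library left out in turn.

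The other 9 cytosolic enzymes called lower had smaller differences, from -0.44 for TARS (threonine) to -0.20 for NARS and CARS (cysteine). The CARS call was lost with library size as the only scaling, with DESeq2 and without the treatment covariate. The NARS call was lost with library size only and without the covariate, and those of LARS and RARS without the covariate. SARS, KARS, TARS, HARS and IARS kept theirs under all 7 alternatives. QARS, the glutamine enzyme, is singled out after its values were seen, since it was the exception. It had 151 and 140 CPM in A4 and 177 and 162 CPM in B212, so both B212 values were above both A4 values. The log2 fold change of 0.22 ± 0.07 passed with edgeR (adjusted p = 0.0121) but not with DESeq2 or without the treatment covariate. AARS (0.05 ± 0.07) and DARS (0.08 ± 0.07) did not pass, nor did VARS (0.75 ± 0.58). AARS and DARS had values of 258 to 302 and 133 to 151 CPM, and their tags overlapped. No synthetase gene reached a log2 fold change of 1 past the threshold. With the length and GC trend removed, 57.1% of all genes were called between tags, 31.6% lower and 25.5% higher. In the same fit 16 cytosolic (15 lower) and 10 mitochondrial enzymes (9 lower) were called.

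**Figure D4:**
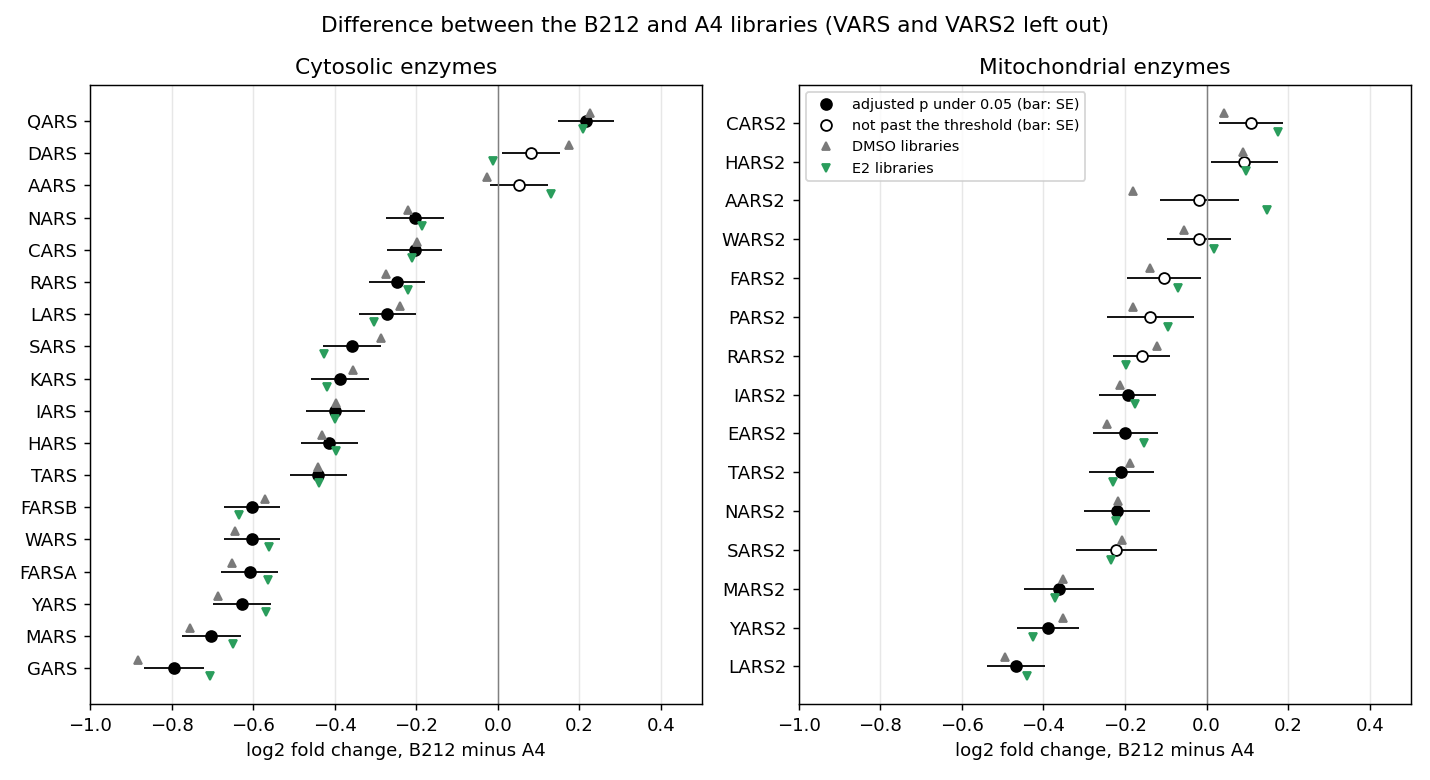
Log2 fold change of the synthetase genes shown between tags, B212 minus A4, with circles and bars for the fitted value and its SE (filled where the adjusted p is under 0.05), upward triangles for the DMSO libraries and downward triangles for the E2 libraries, leaving out VARS and VARS2. Of the cytosolic enzymes 15 are called below 0, down to -0.79 for GARS, and the mitochondrial enzymes reach from -0.47 (LARS2) to 0.11 (CARS2).

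Among the mitochondrial enzymes LARS2 (leucine) differed most, with 84.9 and 76.8 CPM in A4 and 60.3 and 56.5 CPM in B212. Its log2 fold change was -0.47 ± 0.07 (adjusted p = 1.77e-05 by edgeR). YARS2 had 53.5 and 58.6 CPM in A4 and 41.9 and 43.6 CPM in B212, a log2 fold change of -0.39 ± 0.08 (adjusted p = 0.000231 by edgeR). None of these values overlapped between tags. MARS2 had 22.4 and 22.02 CPM in A4 and 17.6 and 17.0 CPM in B212, a log2 fold change of -0.36 ± 0.09 (adjusted p = 0.00157 by edgeR). LARS2, YARS2 and MARS2 were called under all 7 alternative scalings, filters, tools and models run on the 4 libraries, though with only 3, 2 and 2 of the 4 libraries left out in turn.

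The other 4 mitochondrial calls were near the threshold. IARS2 had 305 and 289 CPM in A4 and 263 and 256 CPM in B212 (-0.19 ± 0.07, adjusted p = 0.0258 by edgeR). NARS2 had 27.4 and 28.96 CPM in A4 and 23.6 and 24.8 CPM in B212 (-0.22 ± 0.08, adjusted p = 0.0300 by edgeR), and neither gene overlapped between tags. TARS2, given above, had -0.21 ± 0.08 (adjusted p = 0.0342 by edgeR), and its tags overlapped, since the A4 E2 value lay below the B212 DMSO value. EARS2, the mitochondrial glutamate enzyme, had 35.9 and 33.0 CPM in A4 and 30.3 and 29.7 CPM in B212 (-0.20 ± 0.08, adjusted p = 0.0428 by edgeR). These 4 calls were lost with library size as the only scaling, with DESeq2 and without the treatment covariate. The 10 mitochondrial genes that did not pass ranged from -0.22 (SARS2) to 0.11 (CARS2). HARS2 was among them with 0.09 ± 0.08, while HARS, its neighbour across the shared stretch printed above, was lower in B212, with a log2 fold change of -0.41 ± 0.07 (adjusted p = 5.25e-05 by edgeR).

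The difference was seen in the cytosolic subgroups below. Of the 7 cytosolic enzymes known from the multisynthetase complex, 5 were called lower and 1, QARS, higher, with a median log2 fold change of -0.27. Of the 12 cytosolic enzymes outside it 10 were called lower, with a median of -0.43. By catalytic fold, 7 of the 9 cytosolic class I enzymes were lower and 1 higher (median -0.27), and 8 of the 10 class II enzymes were lower (median -0.40). Of the mitochondrial enzymes, 5 of the 9 of class I were lower (median -0.19). Only 2 of the 8 of class II were (median -0.15). Of the 7 cytosolic genes with the ATF4 core in their window 6 were lower (median -0.40), and of the 8 without it 7 were lower and 1 higher (median -0.40). The difference between these subgroups was not tested, and their counts stand beside 25.8% of all genes called lower in B212 and 25.2% called higher. Of the complex scaffolds, EEF1E1 was lower in B212 (-0.34 ± 0.09, adjusted p = 0.00235 by edgeR), while AIMP1 (0.02) and AIMP2 (-0.17) did not pass. EPRS, the fused complex enzyme outside the rule, was lower, with 882 and 876 CPM in A4 and 612 and 642 CPM in B212 (-0.49 ± 0.07, adjusted p = 1.4e-05 by edgeR), and so was TARSL2 (-0.65 ± 0.10, adjusted p = 1.59e-05 by edgeR).

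Many other genes of tRNA supply were lower in B212. Of 26 genes of tRNA maturation and export that were tested, 17 were called lower and 2 higher, with a median log2 fold change of -0.33. The RNase P subunits POP1 (-1.14 ± 0.08) and RPP40 (-0.91 ± 0.09), the pseudouridine synthase PUS1 (-0.72 ± 0.09) and the 3' end nuclease ELAC2 (-0.53 ± 0.07) had the smallest p-values. Of 25 genes of RNA polymerase III, which transcribes tRNA genes, 16 were lower and 2 higher, with a median of -0.29. Of 4 genes for partners of mitochondrial charging, QRSL1 (-0.28 ± 0.08) and MTFMT (-0.26 ± 0.08) were lower. These counts stand beside 25.8% of all genes called lower.

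Of 22 genes of the ATF4 pathway, 17 were lower in B212 and 1, NUPR1 (0.98 ± 0.09), was higher, with a median log2 fold change of -0.56. Among all genes 25.8% were called lower in B212 and 25.2% higher. ASNS, which makes asparagine and whose promoter stretch is printed above, had 442 and 548 CPM in A4 and 187 and 225 CPM in B212 (-1.26 ± 0.07, adjusted p = 1.08e-11 by edgeR). TRIB3, a pseudokinase, STC2, a secreted glycoprotein, and PCK2, a mitochondrial carboxykinase, were lower, with log2 fold changes of -1.08 ± 0.08, -0.96 ± 0.08 and -0.96 ± 0.08. ATF4 itself had 512 and 578 CPM in A4 and 389 and 400 CPM in B212 (-0.46 ± 0.07, adjusted p = 2.48e-05 by edgeR). With E2, 0 of the 22 passed by edgeR without the block, and 0 had an unadjusted p under 0.05. Under the replicate block 2 were higher and 0 lower, where 6.13% of all genes were higher and 3.44% lower. These were ASNS (0.29 ± 0.07, adjusted p = 0.0145 by edgeR) and PSPH, a serine synthesis enzyme (0.25 ± 0.07, adjusted p = 0.0357 by edgeR). Both passed after the length and GC correction, where DDIT4 was lower (-0.27). In that fit 3.86% of all genes were higher and 2.17% lower. The synthetase and ATF4 pathway lists come from the same libraries, so their values stand side by side and no relation between them was tested.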

How the data were processed

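The deposited values were raw counts of reads per gene symbol in 4 libraries. HISAT2, SAMtools, featureCounts and DESeq2 and the build hg19 are named in the submitters' processing notes, and their versions, the annotation and the strand setting are not given in the sources used here. All 26364 symbols named a gene, with 0 blank. A further 4 value columns could not be matched to any sample and were not used.

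Genes were kept by filterByExpr (minimum count 10) in edgeR 4.0.16, with TMM scaling, and tested by the quasi-likelihood test with Benjamini-Hochberg adjustment over all 15599 genes (threshold 0.05). E2 was compared with DMSO without a block, with the tag as a replicate block as the alternative. B212 was compared with A4 with treatment as a covariate. The pairing comes from the column names: same-tag libraries deviated together from their group means across genes (Pearson r = 0.871), which with 2 groups of 2 is a single independent value. Alternatives used DESeq2 1.42.0, limma 3.58.1 (voom) and mgcv 1.9.3 (length and GC trend). R 4.3.3, Python 3.11.15 and matplotlib 3.10.9 were used, and the scripts were tested on simulated data.

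Transcript lengths and GC content came from the longest GENCODE 29 transcript per symbol, found for 93.5% of tested genes and all 36 synthetase genes. Gene order and promoters came from RefSeq (GRCh38.p14). That build differs from hg19, so it served for names, order, lengths and printed sequences only. Each SE is the log2 fold change divided by the root of its F value.

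Values are given in every library for synthetase genes past the E2 threshold, for the 6 with the smallest p between tags in each compartment, and for those with a log2 fold change of at least 1. Companion genes named are those with the smallest p in each list, and QARS, NUPR1 and ATF4 were added after their values were seen. The synthetase genes, lists, motifs and tests were chosen with earlier results of these data known. An item that counts over the family include is not reported here by itself.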

Additional observations from a re-analysis of the deposited data

Results flagged for a closer look

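In some genes the 2 pairs of libraries moved in opposite directions. With 1 library per combination of tag and treatment, these differences were not tested. The E2 effect had opposite signs in A4 and B212 in 8 of the 36 synthetase genes and in 4645 of all 15599 genes tested. As the B212 log2 fold change minus that of A4, it was 0.33 in AARS2 (-0.278 in A4 and 0.0521 in B212), -0.187 in DARS (0.164 and -0.023), 0.178 in GARS (-0.0975 and 0.0806) and 0.134 in CARS2 (-0.0175 and 0.116). It was 0.117 in YARS, 0.0831 in WARS, -0.0639 in KARS and 0.0343 in HARS.

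The difference between tags had opposite signs with DMSO and with E2 in 5 of the 36 genes and in 2736 of all 15599. As the log2 fold change with E2 minus that with DMSO, it was -4.75 in VARS (4.28 with DMSO and -0.469 with E2), where the A4 DMSO library had 0 counts, 0.33 in AARS2 (-0.181 and 0.149), -0.187 in DARS (0.174 and -0.0125), 0.155 in AARS (-0.0259 and 0.129) and 0.0727 in WARS2 (-0.0545 and 0.0183). None of these 5 genes was called between tags. Groups of 2 libraries allowed no check for outlying samples.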

How the results depend on the processing

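With E2, the replicate block moved the count of all genes from 0 to 1492 and that of mitochondrial synthetases from 0 to 1 (also 1 without VARS and VARS2, an alternative chosen after the data were seen, and 0 under the other 6 blocked fits). Under the block, all genes numbered 717 with DESeq2 size factors, 1686 with library size only, 1770 with no filter, 562 with DESeq2, 1138 with limma-voom and 940 once length and GC trends were taken out. DESeq2 without the block called 1. VARS made 1 cytosolic call under the block with library size only and with no filter, and the cytosolic median was 0.015 with the trend removed (0.05 as reported). Leaving out a library leaves an arm with 1 library assumed to vary like the others, and the remaining tags are then unequal between arms. E2 medians in these fits were -0.12 to 0.29 (cytosolic) and -0.12 to 0.073 (mitochondrial). Between tags, the 7950 calls became 4456 without the treatment term, 1723 when a log2 change of 1 or more was required (0 cytosolic and 0 mitochondrial) and 3203 to 5754 with a library left out (6 to 12 cytosolic, 0 to 4 mitochondrial; chosen after the data were seen and fitted without the treatment term). The 6 cytosolic calls remained those of GARS, MARS, YARS, FARSA, FARSB and WARS. Mitochondrial calls fell to 3 with library size only, with DESeq2 and without the treatment term. Library size only split all genes into 4761 higher and 3176 lower (3927 and 4023 as reported), with medians of -0.32 cytosolic and -0.092 mitochondrial. The mitochondrial median was -0.18 with no filter and -0.18 to -0.15 with a library left out, and the cytosolic one was -0.46 to -0.35. With library size only, the summed ratios of B212 to A4 were 0.806 and 0.919, and those of E2 to DMSO 1.01 and 0.981, for cytosolic and mitochondrial enzymes. These E2 medians changed sign, while no gene followed across the alternatives did. The cause of these shifts was not tested. Counts at the depth of VARS and VARS2 could not resolve differences of the size seen in the other genes.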

Other observations

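Among the 25 genes of RNA polymerase III, 4 were higher and 0 lower with E2 by edgeR with the replicate block, where 6.13% of all genes were higher. POLR3G, a polymerase subunit, had 26.7 and 39.6 CPM in the A4 DMSO and E2 libraries and 16.5 and 20.5 CPM in the B212 DMSO and E2 libraries. Its log2 fold change was 0.45 ± 0.09 (adjusted p = 0.00451 by edgeR), the libraries with E2 being higher within each tag. GTF3A, the 5S rRNA gene factor, had 126 and 175 CPM in A4 and 107 and 125 CPM in B212 (0.36 ± 0.07, adjusted p = 0.00624 by edgeR). POLR3F (0.30 ± 0.08) and TBP (0.29 ± 0.09) were the others. With the length and GC trend removed, POLR3G (0.28) and GTF3A (0.26) passed, and POLR3F (0.19) and TBP (0.20) did not. POLR1D was then also higher (0.23), while POLR3GL (-0.28) and GTF3C6 (-0.22) were lower, so that 3 were higher and 2 lower. Of all genes, 3.86% were then higher and 2.17% lower. Without the block, 0 of the 25 passed and 0 had an unadjusted p under 0.05.

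EEF1E1, the complex scaffold protein, had 22.8 and 27.4 CPM in A4 and 17.1 and 22.7 CPM in B212. It was higher with E2 under the block (0.34 ± 0.09, adjusted p = 0.0187 by edgeR), but its log2 fold change was 0.02 with the trend removed. SEPSECS, which completes selenocysteine on its tRNA, went against most of the family between tags, with 14.9 and 15.1 CPM in A4 and 20.4 and 23.2 CPM in B212 (0.54 ± 0.09, adjusted p = 5.03e-05 by edgeR).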
